A study of Mus musculus with 10 samples.

Results

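The regions described here are those listed for Rpc155, the largest and catalytic subunit of RNA polymerase III, in the nuclear chromatin of mouse cortical neurons exposed to KCl, set against those listed in untreated neurons. The KCl list held 4233 regions on chromosomes 1 to 19 and the untreated list 12511. Together they made up 16744 of the 643019 regions in the 8 chromatin immunoprecipitation and sequencing (ChIP-seq) peak lists of the series, and 18 KCl and 20 untreated regions on X and Y were left out. The neurons were primary cultures from C57BL/6J cortex at day 6 in vitro that had spent the night in 3% serum. One group then received 50 mM KCl for 45 min, which depolarizes neurons and opens their voltage-gated calcium channels, and the other no treatment. Each condition had 1 list per antibody. Every difference below is therefore between lists and carries no replicate check, and the 95% intervals are exact binomial (Clopper-Pearson) and cover counting error only. The other lists of the series, for Gtf3c1 (a subunit of the initiation factor TFIIIC) and for the histone marks H3K27ac and H3K4me1, were used as further readouts at the same places.

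RNA polymerase III makes short noncoding RNAs, among them the tRNAs, the 5S rRNA, the 7SK RNA that restrains transcription elongation, and the RNA parts of RNase P, RNase MRP and the signal recognition particle. At tRNA genes TFIIIC binds the A and B boxes inside the gene and brings in TFIIIB, which recruits the polymerase, whereas the genes of 7SK, RNase P, RNase MRP and the Y RNAs rely on elements upstream of the start. In neurons the polymerase also makes BC1, a dendritic RNA that regulates translation. Depolarization by KCl induces immediate-early genes such as Fos within minutes, and these are transcribed by RNA polymerase II.

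The following 4 windows reach from 250 bases before to 50 bases after an annotated start (RefSeq, GRCm38.p6, 5′ to 3′ along the gene's strand, positions counted from 1 at the 5′ end) and are shown because they hold the kinds of place the comparison turns on. Bc1 (chr7:144914220-144914519, plus strand) is an RNA polymerase III gene with a region in both lists. Fos (chr12:85473640-85473939, plus strand), which encodes an AP-1 subunit, and Scg2 (chr1:79439977-79440276, minus strand), which encodes the secretory granule protein secretogranin II, had a region in the KCl list alone. Homer1 (chr13:93303507-93303806, plus strand), which encodes a postsynaptic scaffold protein, had one in both. Capitals mark the A box in Bc1, TATAAA in Fos, and TGACG on either strand, the core of the cAMP response element whose whole palindrome is TGACGTCA, in Fos, Scg2 and Homer1.
Bc1: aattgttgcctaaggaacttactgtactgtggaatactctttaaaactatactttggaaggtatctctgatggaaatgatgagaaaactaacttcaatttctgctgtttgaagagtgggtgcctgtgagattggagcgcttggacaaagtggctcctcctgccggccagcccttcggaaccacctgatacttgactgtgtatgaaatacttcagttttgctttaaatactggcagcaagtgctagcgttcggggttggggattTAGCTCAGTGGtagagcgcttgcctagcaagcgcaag
Fos: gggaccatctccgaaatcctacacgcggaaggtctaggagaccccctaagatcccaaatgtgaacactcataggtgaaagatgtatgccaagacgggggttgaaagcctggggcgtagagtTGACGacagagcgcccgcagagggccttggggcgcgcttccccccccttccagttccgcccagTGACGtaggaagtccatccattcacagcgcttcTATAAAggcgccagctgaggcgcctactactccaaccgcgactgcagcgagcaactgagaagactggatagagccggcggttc
Scg2: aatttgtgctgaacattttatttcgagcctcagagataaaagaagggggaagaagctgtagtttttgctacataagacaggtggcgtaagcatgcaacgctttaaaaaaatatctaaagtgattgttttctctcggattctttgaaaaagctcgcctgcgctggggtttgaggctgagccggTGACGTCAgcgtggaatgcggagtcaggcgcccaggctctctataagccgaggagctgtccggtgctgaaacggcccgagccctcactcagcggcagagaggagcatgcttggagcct
Homer1: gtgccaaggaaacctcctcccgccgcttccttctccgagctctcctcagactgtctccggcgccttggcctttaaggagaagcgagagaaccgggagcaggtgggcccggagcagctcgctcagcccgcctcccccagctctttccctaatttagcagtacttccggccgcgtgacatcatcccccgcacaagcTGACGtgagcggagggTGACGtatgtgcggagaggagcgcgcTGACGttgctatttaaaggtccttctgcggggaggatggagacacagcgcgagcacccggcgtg
The KCl region covered all 300 bases of the Bc1 and Homer1 windows, bases 199 to 300 of the Fos window and bases 1 to 254 of the Scg2 window. It thus held the TATAAA of Fos at base 218 but neither TGACG of that window, at bases 122 and 185, and it held the TGACGTCA of Scg2 at base 183. The untreated regions covered 239 bases of the Bc1 and 296 of the Homer1 window, and none of the Fos and Scg2 windows. The KCl regions at the starts of Fos and Scg2 lay near the floor of their list. Their −log10 q was 1.49 and 1.91, where the lowest of the KCl list was 1.46. A match of these letters is a description and does not show a bound factor.

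H3K27ac lay at a larger share of the neuronal marker genes than of the other marker genes. An H3K27ac region lay within 1 kb of an end of 7 and 7 of 7 glutamatergic genes in the KCl and untreated lists, of 7 and 6 of 7 GABAergic genes, and of 6 and 6 of 6 pan-neuronal genes. Astrocyte genes had one at 3 and 4 of 6, with none at Gja1 or Aldh1l1, oligodendrocyte lineage genes at 1 and 1 of 5, endothelial genes at 1 and 0 of 4, and microglial genes at none of 6. The share of all genes with such a region was not counted, so these counts have no base rate beside them. The depth of the libraries is not given by the lists. The steps between neighbouring fold enrichment values gave a local background of 4.51 fragments per position in the KCl list and 4.89 in the untreated list, and at that background 79.1% of the KCl and 85.7% of the untreated values were whole fragment numbers within 0.01. Depth and ChIP efficiency cannot be told apart from the treatment in the number of regions.

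The lists shared their strong regions and differed in their weak ones. Of the KCl regions, 2194 (51.8%, 50.3 to 53.3) overlapped an untreated region by at least 1 bp, and 2039 did not. Of the untreated regions, 2189 (17.5%, 16.8 to 18.2) overlapped a KCl region and 10322 did not. When the untreated list was shortened to its 4233 regions with the highest −log10 q, 1390 KCl regions (32.8%) and 1375 untreated regions (32.5%) were shared. This setting, called equal list length below, did not cut the KCl list. The lowest −log10 q was then 1.46 in the KCl list and 4.61 in the untreated list. Weak regions thus dropped out of the untreated list alone.

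Sharing depended on the fold enrichment, which is the authors' ratio of the signal at a region's summit to its local background. At values of 20 or more, all 186 KCl and all 175 untreated regions were shared. Between 10 and 20, 148 of 151 KCl and 85 of 87 untreated regions were shared, and between 6 and 10, 84.1% of the KCl and 66.4% of the untreated regions. Between 3 and 4, where most regions of both lists lay, 39.9% of 2498 KCl and 11.2% of 7701 untreated regions were shared. The difference in list length fell on the weak regions, since 576 KCl and 583 untreated regions reached a fold enrichment of 6, and 337 KCl and 262 untreated regions reached 10. It was spread over the genome, with the number of untreated regions per KCl region lying between 2.34 on chromosomes 13 and 19 and 3.48 on chromosome 9.

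**Figure D1:**
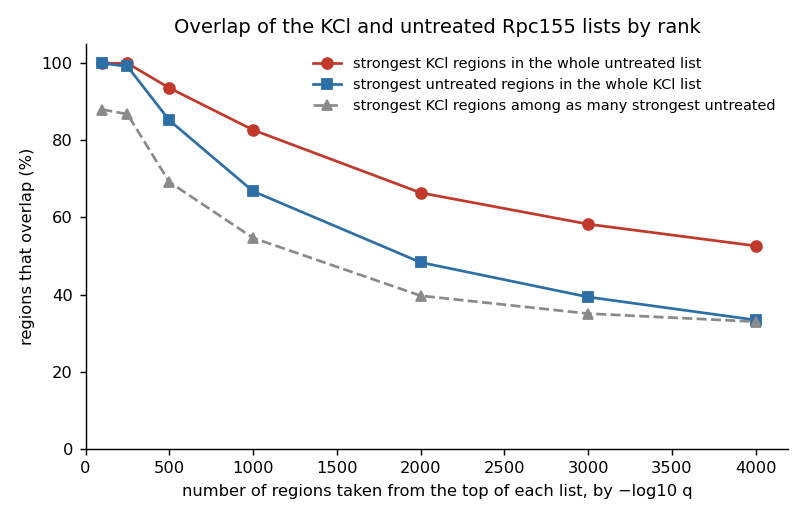
The share of regions that overlap (percent, vertical axis) against the number of regions taken from the top of each list by −log10 q (horizontal axis). Of the 100 strongest regions all were in the other full list in both directions, whereas of the 1000 strongest 82.7% of the KCl regions (circles) and 66.8% of the untreated regions (squares) were. The share of KCl regions found among as many of the strongest untreated regions (triangles) was 88.0% at 100 and 33.0% at 4000.

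Some regions in one list alone lay close to a region of the other list. Within 1 kb of an untreated region lay 462 KCl-only regions (22.7%), and 618 untreated-only regions (5.99%) lay within 1 kb of a KCl region. At equal list length the shares were 6.61% of KCl-only and 5.28% of untreated-only regions. Overlap itself was mostly deep, with a median of 95.6% of the shorter region, but 279 of 2214 overlapping pairs shared under 50% of it. Of the pairs, 2124 were one to one. Another 20 KCl regions each overlapped 2 untreated regions, and 25 untreated regions each overlapped 2 KCl regions.

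The KCl regions were narrower where both lists had one. The median width of shared regions was 437 bp in the KCl list and 557 bp in the untreated list. Among the one-to-one pairs 1366 were narrower and 756 wider in the KCl list, with a median log2 width ratio of −0.23. KCl-only regions had a median width of 360 bp and untreated-only regions 389 bp. The summits of a pair lay a median of 86 bp apart, and 53.5% (51.3 to 55.6) lay within 100 bp of each other. At tRNA genes 93.4% of 167 pairs did, with a median distance of 26 bp. Of the 208 pairs away from tRNA genes with a fold enrichment of at least 6 in both lists 95.2% did, with a median distance of 17.5 bp.

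**Figure D2:**
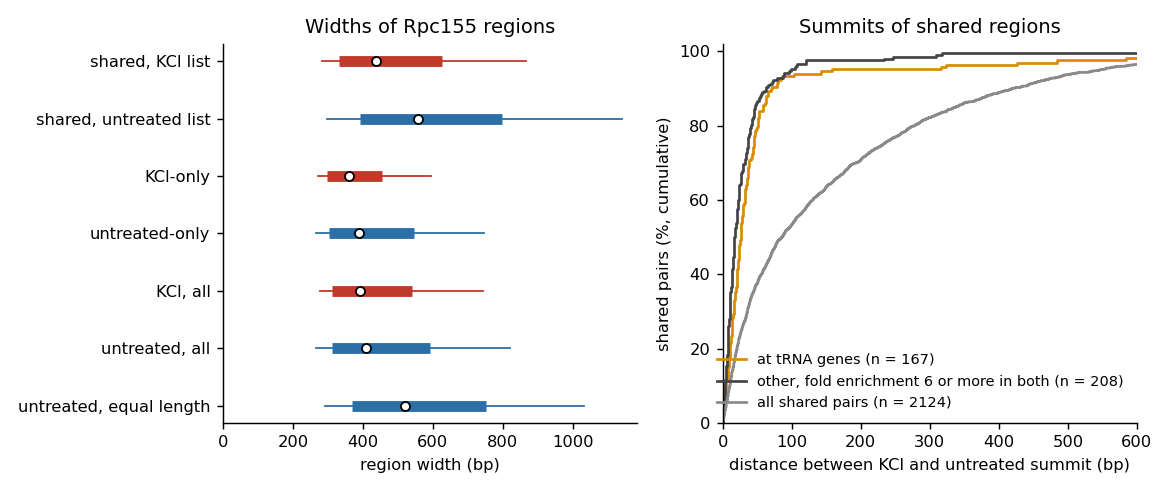
Left, region width in bp for each class of region, where the circle is the median, the thick bar the middle 50% and the thin line the 10th to 90th percentile. Right, the cumulative share of one-to-one pairs (percent) against the distance between their KCl and untreated summits in bp, which rises steeply for pairs at tRNA genes (median 26 bp) and for other pairs with a fold enrichment of at least 6 in both lists (median 17.5 bp), and slowly over all 2124 pairs (median 86 bp).

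The tRNA genes carried the highest fold enrichments in both conditions, with similar values in each at the genes that both lists covered. Of 391 nuclear tRNA genes, 251 (64.2%, 59.2 to 69.0) had a region within 200 bp in the KCl list and 265 (67.8%, 62.9 to 72.4) in the untreated list, where the share over all 47042 annotated genes was 6.88% in the KCl list and 16.9% in the untreated list. Both lists covered 249 of these genes and neither covered 124. The median fold enrichment over the 249 genes in both lists was 43.4 in the KCl list and 45.3 in the untreated list. Over the 249 genes the log2 ratio of KCl to untreated fold enrichment ran from −1.20 to 0.93 with a median of −0.05, higher at 113 genes and lower at 136, and 4 genes differed by more than 2 times. H3K27ac, in contrast, was higher at 99 and lower at 9 of the 108 pairs at tRNA genes with an H3K27ac region in both conditions, with a median log2 ratio of 0.59, against 0.29 over all pairs. Neighbouring tRNA genes can share a region, and the 251 genes fell in 180 KCl regions and the 265 genes in 188 untreated regions.

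The tRNA genes in one list alone were weakly occupied. Over all annotated genes 1.84% were in the KCl list alone and 11.8% in the untreated list alone. The 2 tRNA genes in the KCl list alone were n-TLcaa2, a leucine tRNA gene, and n-TSaga5, a serine tRNA gene, with fold enrichments of 4.03 and 4.54, both without Gtf3c1 in either condition. The 16 in the untreated list alone had a median of 5.91, from 2.77 at the glycine tRNA gene n-TGgcc12 to 8.49 at the cysteine tRNA gene n-TCgca47. They included 4 of the 28 glycine genes, which were covered at 16 in the KCl list and 20 in the untreated list, and 4 of the 15 glutamine genes, covered at 8 in the KCl list and 12 in the untreated list. Gtf3c1 was listed at none of the 16 in its KCl list and at 3 in its untreated list, whereas of the 249 genes with Rpc155 in both it was listed at 223 in its KCl list and 216 in its untreated list. For alanine, phenylalanine, arginine and threonine tRNA genes the count was the same in both lists, at 19 of 21, 7 of 7, 22 of 23 and 16 of 17. Cysteine genes stood lowest, at 6 of 56 in the KCl list and 7 in the untreated list, and 47 of the 48 on chromosome 6 were in neither. Copies of one tRNA gene can be near-identical, and how reads were placed among them was not tested.

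The other RNA polymerase III genes were likewise held in both lists, and at most of them the KCl value was the lower one. Among genes with upstream promoters, Rn7sk, which encodes 7SK, had a fold enrichment of 32.9 (KCl) and 47.7 (untreated), in regions of 666 bp (KCl) and 1391 bp (untreated). Rmrp, the RNase MRP RNA gene, had 60.5 (KCl) and 58.2 (untreated), and Rpph1, the RNase P RNA gene, had 18.3 (KCl) and 20.1 (untreated). The Y RNA gene Rny1 had 45.8 (KCl) and 52.0 (untreated), and Rny3 had 43.5 (KCl) and 55.2 (untreated). Among genes with internal promoters, the signal recognition particle RNA genes stood at 26.5 (KCl) and 35.8 (untreated) for Rn7s1 and at 38.9 (KCl) and 43.1 (untreated) for Rn7s2. Vaultrc5, a vault RNA gene, had 25.6 (KCl) and 35.0 (untreated). Bc1, whose window is shown above, had 16.7 (KCl) and 17.5 (untreated), and it was the 1 gene of this group where Gtf3c1 was listed with KCl alone. The KCl value was thus the higher one at Rmrp alone among these 9 genes. Rnu6 and Rn4.5s, members of repeated families, had no region within 200 bp, and none of the 61 rRNA genes of the annotation, 5S included, had one.

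**Figure D3:**
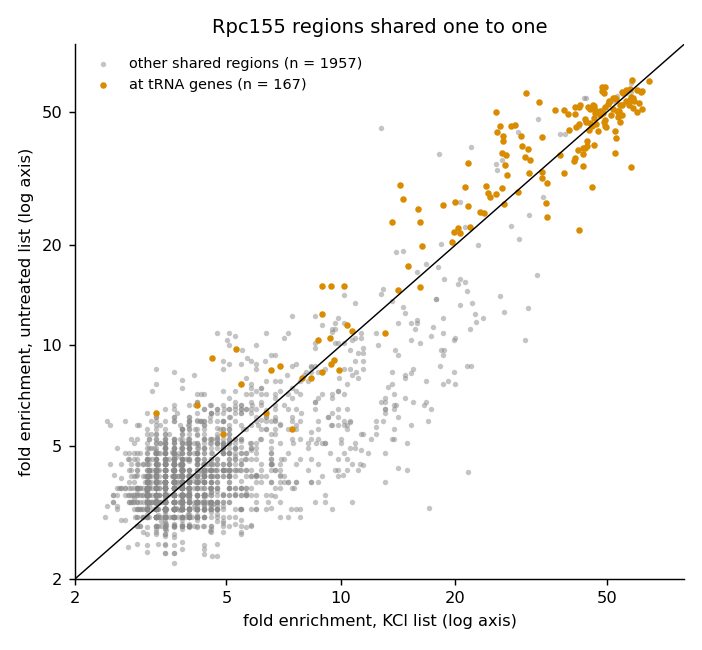
Fold enrichment of each one-to-one shared Rpc155 region in the KCl list (horizontal) and in the untreated list (vertical), both on log axes, with the line of equal values. The 167 pairs at tRNA genes lie along the line at high values, with 66 higher and 101 lower in the KCl list, whereas pairs away from tRNA genes include 82 that were at least 2 times higher in the KCl list and 15 at least 2 times lower, where over all pairs the shares are 3.86% and 0.8%.

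Away from tRNA genes a group of shared regions was stronger in the KCl list. Over all 2124 one-to-one pairs the fold enrichment was at least 1.5 times higher in the KCl list at 231 (10.9%) and at least 1.5 times lower at 129 (6.07%), with a median log2 ratio near 0. At tRNA genes 3 of 167 pairs were at least 1.5 times higher and 20 lower. Of the 208 other pairs with a fold enrichment of at least 6 in both lists, 59 were at least 1.5 times higher and 5 lower, and their median was 12.99 in the KCl list and 9.42 in the untreated list. The median log2 ratio of these pairs was 0.22, higher at 134 and lower at 74. The size depended on how the pairs were taken, at 0.55 for the 358 pairs that reached 6 in the KCl list, −0.06 for the 297 that reached 6 in the untreated list, and 0.08 for the 82 that reached 10 in both. These settings were chosen after the values were seen.

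TFIIIC was higher in its KCl list at most of the shared polymerase pairs where both conditions listed it. A Gtf3c1 region in both conditions lay at 199 of the 208 pairs, with a median fold enrichment of 21.2 (KCl) and 16.5 (untreated). Over all 1869 one-to-one pairs with Gtf3c1 in both conditions its median log2 ratio was 0.19, higher at 1208 and lower at 661. Where Rpc155 was higher with KCl, Gtf3c1 was also higher at 115 and lower at 17 pairs, with a median log2 ratio of 0.58. Where Rpc155 was lower, Gtf3c1 was higher at 37 and lower at 30, with a median of 0.08, and the rank correlation of the 2 log2 ratios across these 67 pairs was 0.10. Across the 199 sites the rank correlation of the log2 ratios of the 2 antibodies was 0.68, and it was 0.61 across 136 pairs at tRNA genes and 0.43 across the 1869 pairs. For H3K27ac it was 0.13 across 163 of the 208 pairs and for H3K4me1 0.15 across 172. Sites of one pair of lists share their libraries and culture conditions, so these correlations describe the lists and carry no p-value.

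The largest ratios were taken among pairs with a fold enrichment of at least 6 in either list. The highest was in Tcf4, a transcription factor gene of neuronal development, at 17.1 (KCl) and 3.25 (untreated). Map3k13, the gene of the kinase LZK, held 21.6 (KCl) and 4.18 (untreated). The next, 127 bp from an end of the homeobox gene Meis2, had 14.9 (KCl) and 4.24 (untreated). Zbtb20, a zinc finger repressor gene, held 14.2 (KCl) and 4.29 (untreated), and Nfix, a nuclear factor I gene, 14.9 (KCl) and 5.09 (untreated). Arpp21, the gene of a cAMP-regulated neuronal phosphoprotein, held 16.9 (KCl) and 5.94 (untreated). Others of the 10 highest lay in Msmo1 (sterol synthesis), Gapvd1 and Lmo4. The KCl region was also the wider one in Tcf4, with 915 bp (KCl) and 294 bp (untreated).

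The lowest ratio stood out by size. A region 1444 bp beyond the end of Fosb, which encodes an AP-1 subunit, had a fold enrichment of 12.7 (KCl) and 44.8 (untreated). Its summits lay 36 bp apart, 8866 bp (KCl) and 8830 bp (untreated) downstream of the start of Fosb, and it was 1732 bp (KCl) and 892 bp (untreated) wide. The next lay 207750 bp from the nearest gene, Tshz2, with 3.27 (KCl) and 8.49 (untreated), and in Denr, a translation reinitiation factor gene, with 3.27 (KCl) and 7.64 (untreated). The 1 tRNA gene among the 10 lowest was the proline gene n-TPtgg7, with 14.3 (KCl) and 30.2 (untreated).

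Some shared regions at synaptic genes were higher in the KCl list, and those named here are examples picked for that. Near the genes of the synaptic list 8 regions of each list were shared. How many of these were higher or lower is not given here. Gria1, which encodes an AMPA receptor subunit, stood at 19.8 (KCl) and 10.4 (untreated). Gria4, another AMPA receptor subunit gene, stood at 17.4 (KCl) and 11.4 (untreated). Nlgn1, which encodes the postsynaptic adhesion protein neuroligin 1, stood at 9.08 (KCl) and 3.40 (untreated). Of the 27 genes of the synaptic and neuronal structure list, 16 had a region within 5 kb of a gene end in the KCl list and 18 in the untreated list, with 4 in the KCl list alone and 6 in the untreated list alone. Of all 20665 protein-coding genes, 12.5% were in the KCl list and 30.2% in the untreated list, with 3.7% in the KCl list alone, 21.4% in the untreated list alone and 8.83% in both. At equal list length 16 synaptic genes were in the KCl list and 6 in the untreated list, where of all protein-coding genes 12.5% and 11.4% were, with 4.7% in both. With q held to 1e-05 or lower in both lists, 8 (KCl) and 5 (untreated) were, where all protein-coding genes stood at 4.3% and 9.17%. In the full lists, the genes in the KCl list alone were Map2, a dendritic microtubule protein gene with a fold enrichment of 7.26, the release machinery genes Syt1 and Snap25, and the NMDA receptor subunit gene Grin2b. Those in the untreated list alone included Camk2b, Grin1, Syn2, Shank1 and Shank2.

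The regions of one list alone lay nearer to genes in the KCl list. On the 18 chromosomes with annotated starts, 35.0% (32.9 to 37.2) of KCl-only and 30.7% (29.8 to 31.6) of untreated-only regions had their summit within 1 kb of a protein-coding start, against 27.3% of shared KCl regions. RNA polymerase III genes held 0.10% of the KCl-only, 0.15% of the untreated-only and 8.76% of the shared KCl regions. Regions outside protein-coding genes made up 29.6% of the KCl-only and 36.0% of the untreated-only regions. At equal list length 35.2% of KCl-only and 30.8% of untreated-only regions lay near a start, and 31.4% and 37.2% outside genes. Near a start the shared KCl regions lay mostly upstream, at 60.2% (56.2 to 64.1) with a median of 107 bp upstream, whereas 47.8% of KCl-only and 48.9% of untreated-only regions did.

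TFIIIC was listed at most of these regions too. A Gtf3c1 region of the KCl list overlapped 72.1% (70.1 to 74.1) of KCl-only and 90.7% of shared KCl regions, and an untreated one overlapped 73.2% of untreated-only regions. Regions of one list alone more often had Gtf3c1 in the matching list alone. Of the KCl-only regions, 17.95% had Gtf3c1 in its KCl list alone and 8.14% in its untreated list alone. Of the untreated-only regions, 7.75% had it in the KCl list alone and 17.2% in the untreated list alone. H3K27ac was in its KCl list alone at 10.4% and in its untreated list alone at 2.60% of KCl-only regions, and at 5.47% and 6.08% of untreated-only regions.

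The 10 KCl-only regions with the highest −log10 q all had Gtf3c1 and KCl H3K27ac. They had fold enrichments of 7.81 to 12.2 and included Grk5 (a receptor kinase gene), Sez6l2, Myt1l, Adamts6, Tmem74, Adgrl3 and Mapk10, the microRNA host gene Mir99ahg, a place 918 bp from Mir125b-2, and the immediate-early gene Sik1. The untreated-only regions were led by the noncoding gene Zmiz1os1, with a fold enrichment of 12.6, and included Tbxas1, Sv2b (a synaptic vesicle protein gene) and the tRNA gene n-TCgca47. Of these 10, KCl H3K27ac was listed at 3 and untreated H3K27ac at 5. Gtf3c1 was listed in both conditions at all of them except n-TCgca47 and the region whose nearest gene was Tcim. KCl-only regions inside a gene or within 5 kb of its ends were most numerous at Ank3, the ankyrin G gene of the axon initial segment. Ank3, of 493951 bp, had 5 of them and 3 untreated-only regions. Celf2, Pde4d, Tcf4 and Tenm2 had 4 each, with 7 to 10 untreated-only regions. Junb was among the many genes with 3, and it had 0 untreated-only regions. Msra, named like the next genes after its values were seen, had 21 untreated-only and 2 KCl-only regions, and Dab1 and Auts2, long genes of cortical development, had 13 and 12 untreated-only regions and no KCl-only region.

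Genes induced by neuronal activity were in the KCl list more often than in the untreated list, whereas of all genes more were in the untreated list. Of 32 immediate-early genes, 20 had a region within 5 kb in the KCl list and 17 in the untreated list. Of these, 6 were in the KCl list alone and 3 in the untreated list alone. All protein-coding genes stood at 12.5% (KCl) and 30.2% (untreated), with 3.7% in the KCl list alone and 21.4% in the untreated list alone. At equal list length 20 had one in the KCl list and 5 in the untreated list, and 15 were in the KCl list alone and 0 in the untreated list alone, where 7.83% and 6.73% of all protein-coding genes were. That setting removes weak regions from the untreated list alone, so part of this gap follows from the cut. With q held to 1e-05 or lower in both lists, 11 immediate-early genes had a region in the KCl list and 3 in the untreated list, where all protein-coding genes stood at 4.3% and 9.17%. With fold enrichment held to 6 or more, 3 (KCl) and 2 (untreated) had one, where all stood at 1.43% and 1.4%. The regions themselves mostly differed, since of 32 distinct KCl regions and 19 untreated regions near these genes 8 in each list were shared. At Egr1, Sik1, Dusp1, Srf and Nr4a3, which had a region in both lists, no KCl region overlapped an untreated one. The regions were weak, with a median fold enrichment of 3.72 in the KCl list and 3.45 in the untreated list.

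The immediate-early genes whose values follow are examples that the KCl list held, and they do not stand for the whole set. Arc, Maff and Csrnp1 went the other way, since the untreated list alone held them. At Fos the KCl list held a region at the start with a fold enrichment of 2.43 and another at the 3′ end with 4.36, and the untreated list none. The region at the start of Fos had a −log10 q of 1.49, where the lowest of the KCl list was 1.46. At Junb the KCl list held 3, with 5.09 upstream, 3.27 at the 3′ end and 4.18 beyond it. Gadd45g, a growth arrest gene, had 7.08 upstream of its start, and Gadd45b had 3.8 at its start. Sik1, which encodes a salt-inducible kinase, had 8.90 in the KCl list, and a separate untreated region there had 3.23. Of the delayed activity-regulated genes, 10 of 20 had a region in the KCl list and 9 in the untreated list. All protein-coding genes stood at 12.5% (KCl) and 30.2% (untreated). At equal list length, which cuts weak regions from the untreated list alone, 10 (KCl) and 1 (untreated) delayed genes had one. There all protein-coding genes stood at 12.5% and 11.4%. With q held to 1e-05 or lower in both lists, 3 (KCl) and 1 (untreated) had one, where all stood at 4.3% and 9.17%. In the full lists, the untreated list alone held the delayed genes Bdnf, Mmp9 and Grasp. The delayed genes included Scg2, with 3.09 and a −log10 q of 1.91 in the KCl list alone. They also included Homer1, with 4.72 (KCl) and 3.40 (untreated) at its start. Gtf3c1 was listed at these regions as well. All 32 KCl regions near immediate-early genes had Gtf3c1 in its KCl list, and at 12 of them (37.5%) it was not in the untreated list, against 11.7% of all KCl regions. Its part in the Rpc155 counts was not tested.

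**Figure D4:**
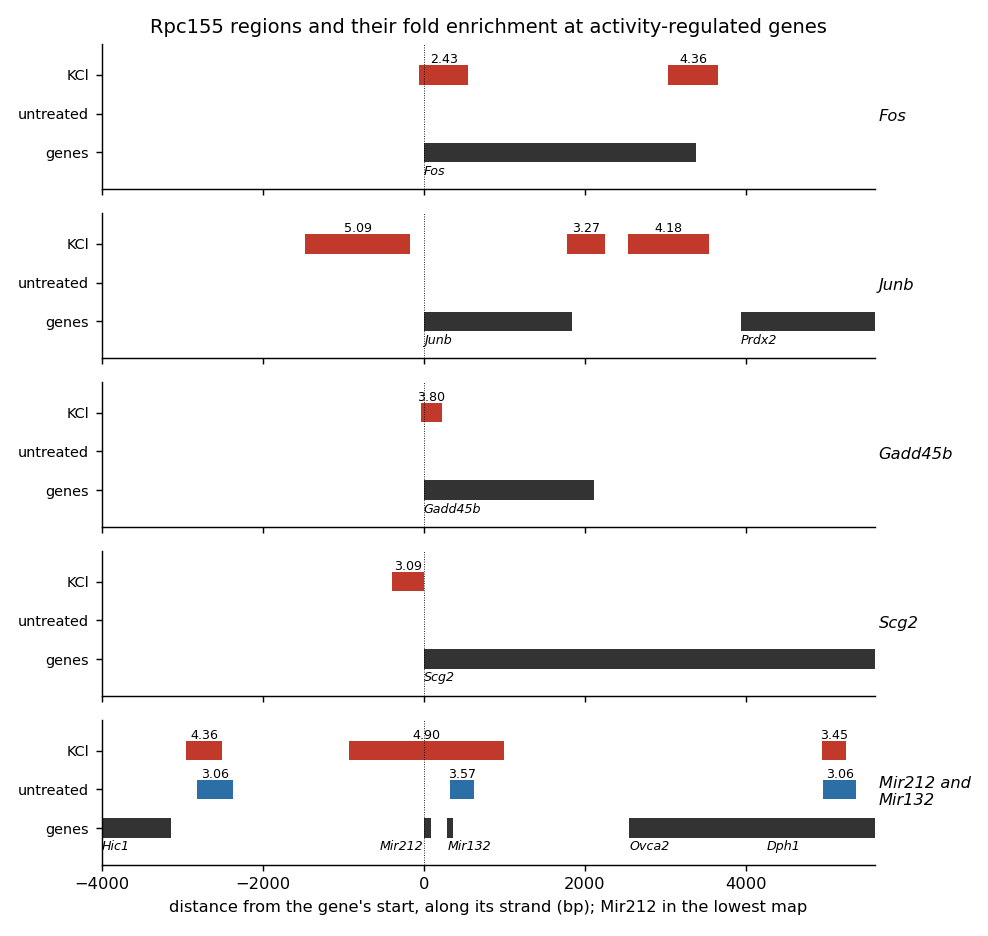
Rpc155 regions of the KCl list (upper bars) and of the untreated list (middle bars) by distance in bp from the gene's start along its strand, with the genes as dark bars and the fold enrichment above each region. Fos, Junb, Gadd45b and Scg2 have regions in the KCl list alone, and at Mir212 and Mir132 a KCl region of 1928 bp with a fold enrichment of 4.90 spans both genes where the untreated region is 296 bp wide with 3.57.

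**Figure D5:**
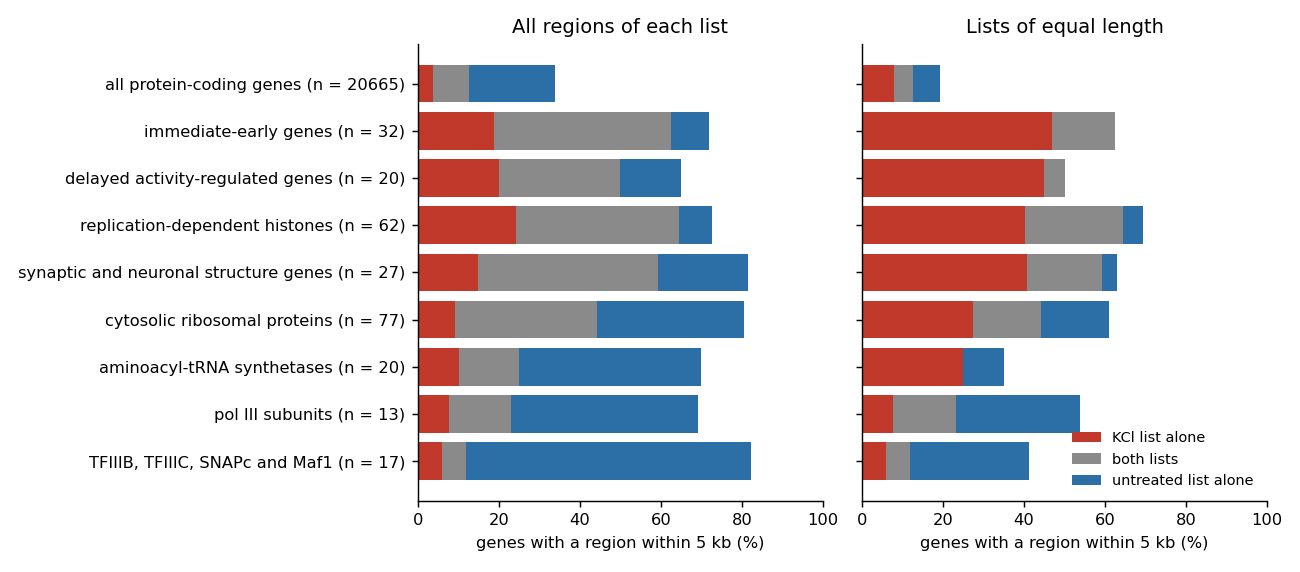
Share of the genes of each list (percent) with an Rpc155 region within 5 kb of a gene end in the KCl list alone, in both lists or in the untreated list alone, with all regions (left) and with lists of equal length (right). At equal length 15 of 32 immediate-early genes were in the KCl list alone and 0 in the untreated list alone, and of all protein-coding genes 7.83% and 6.73%. Equal length was reached by cutting the weak regions of the untreated list alone.

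Replication-dependent histone genes, whose clusters on chromosome 13 are interspersed with tRNA genes, were also more often in the KCl list. Of 62 genes 40 had a region within 5 kb in the KCl list and 30 in the untreated list. Of these, 15 were in the KCl list alone and 5 in the untreated list alone. All protein-coding genes stood at 12.5% (KCl) and 30.2% (untreated), with 3.7% in the KCl list alone and 21.4% in the untreated list alone. At equal list length 40 had one in the KCl list and 18 in the untreated list, where all protein-coding genes stood at 12.5% (KCl) and 11.4% (untreated). The difference was small among stronger regions. With q held to 1e-05 or lower it was 20 (KCl) and 18 (untreated), where all protein-coding genes stood at 4.3% and 9.17%. With fold enrichment held to 6 or more it was 7 (KCl) and 6 (untreated), where all stood at 1.43% and 1.4%. Within the gene body alone the counts were 11 (KCl) and 11 (untreated), where all stood at 10.2% and 26.7%. Without regions at tRNA genes the counts were 39 (KCl) and 24 (untreated), where all protein-coding genes stood at 12.2% (KCl) and 29.9% (untreated). The genes share regions, and the counts rest on 23 distinct KCl and 15 distinct untreated regions, of which 10 in each list were shared. A KCl-only region with a fold enrichment of 4.00 had its summit 32 bp downstream of the start of H3c4, a histone H3 gene, and one with 4.90 had it 54 bp downstream of the start of H4c2, a histone H4 gene. H2bc4, an H2B gene, held a shared region with 6.17 (KCl) and 4.41 (untreated), which was 829 bp (KCl) and 260 bp (untreated) wide.

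Genes of the translation and polymerase III machinery were more often in the untreated list, as all protein-coding genes were. Of 77 cytosolic ribosomal protein genes 34 had a region in the KCl list and 55 in the untreated list, with 7 in the KCl list alone and 28 in the untreated list alone. With lists of equal length the order turned, at 34 (KCl) and 26 (untreated), as it did over all protein-coding genes, which stood at 12.5% (KCl) and 30.2% (untreated) in the full lists and at 12.5% (KCl) and 11.4% (untreated) at equal length. Of 20 aminoacyl-tRNA synthetase genes, which encode the enzymes that charge tRNAs, 5 (KCl) and 12 (untreated) had one, or 5 and 2 at equal list length. Of 13 RNA polymerase III subunit genes 3 (KCl) and 8 (untreated) had one, or 3 and 6 at equal list length. Of 17 genes of TFIIIB, TFIIIC, SNAPc and the repressor Maf1 2 (KCl) and 13 (untreated) had one, or 2 and 6 at equal list length. The subunit gene Polr3e held the highest values of the polymerase III machinery genes, in a region at a tRNA gene with 15.9 (KCl) and 25.6 (untreated) and in another with 21.2 (KCl) and 22.6 (untreated). Rps29 counted through the neighbouring Rn7s1 region.

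A few microRNA genes, which RNA polymerase II mostly transcribes, had a region in the KCl list. Of 1136 hairpins, 15 had a region within 200 bp in the KCl list and 29 in the untreated list, 10 of them in the KCl list alone and 24 in the untreated list alone, so the share was 1.32% (KCl) and 2.55% (untreated), below the shares of all annotated genes given for the tRNA genes. They included the activity-regulated cluster of Mir212 and Mir132, and Mir125b-1, where the KCl-only region had a fold enrichment of 7.69. Mir125b-2 had 3.27, and the overlapping Mir129-2 and Mir129b, which share a region, had 3.45. The mature RNAs are shown (RefSeq, GRCm38.p6, chromosomes 11 for the cluster and 9 for Mir125b-1) because 2 of them share their seed, bases 2 to 8, which stands in capitals.
miR-132-3p: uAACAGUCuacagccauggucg
miR-212-3p: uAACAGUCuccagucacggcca
miR-125b-5p: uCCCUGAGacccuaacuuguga
Mir125b-1 and Mir125b-2 give the same mature miR-125b-5p. Mir1983, with 44.3 (KCl) and 39.7 (untreated), and Mir8105, with 41.2 (KCl) and 49.2 (untreated), lay at tRNA gene regions.

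Promoters in the KCl list alone held the cAMP response element core more often than those in the untreated list alone. Of 20055 windows of protein-coding genes, 344 were overlapped by a region in the KCl list alone, 427 in both and 2536 in the untreated list alone. TGACG on either strand was present in 47.1% (41.7 to 52.5) of the first, 38.9% (34.2 to 43.7) of those in both lists and 35.9% (34.0 to 37.8) of those in the untreated list alone, against 23.9% of all such windows, and the intervals of the windows in one list alone did not overlap. At equal list length it was in 46.1% (41.7 to 50.6) of 499 windows in the KCl list alone and 35.9% (32.8 to 39.2) of 891 in the untreated list alone. The palindrome TGACGTCA, which holds the core on both strands, was in 6.69% (4.29 to 9.86) of windows in the KCl list alone, 8.67% (6.17 to 11.7) of those in both lists and 3.71% (3.01 to 4.52) of those in the untreated list alone, with overlapping intervals for the windows in one list alone, and in 2.30% of all windows. With lists of equal length it was in 8.42% (6.13 to 11.2) of windows in the KCl list alone and 3.14% (2.10 to 4.51) of those in the untreated list alone. For the other motifs the shares are those of the full lists unless equal list length is named. CCAAT was in 37.8% (KCl alone) and 34.1% (untreated alone), the E box CACGTG in 10.2% and 10.6%, and GTTCNANNC, a B box sequence, in 9.30% and 8.95%, where all windows had 38.1%, 7.88% and 8.45%. At equal list length CCAAT was in 37.9% (33.6 to 42.3, KCl alone) and 31.1% (28.1 to 34.2, untreated alone). TATAAA was in 8.43% (5.718 to 11.9, KCl alone) and 4.81% (4.01 to 5.717, untreated alone), below the 12.7% of all windows. These TATAAA intervals did not overlap either, by a narrow margin. At equal list length TATAAA was in 7.41% (5.27 to 10.1, KCl alone) and 5.72% (4.29 to 7.46, untreated alone), with overlapping intervals. The median GC content was 61.2% (KCl alone) and 61.3% (untreated alone), against 57.0% over all windows, and the median number of CG dinucleotides was 22 and 23, against 14. Some genes have several windows, which overlap in part, and the intervals take each window as separate.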

How the data were processed

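ChIP-seq peak lists were used for Rpc155 with KCl and untreated, with those of Gtf3c1, H3K27ac and H3K4me1 as further readouts. The submitters' processing notes name Bowtie2, MACS2 and the build GRCm38/mm10. Their versions, and whether the 3 stated biological replicates were pooled, were not given in the sources used here. Total chromatin input is not analysed here. The deposited fold enrichment is a ratio of a summit to its local background. Each region's −log10 p and −log10 q are likewise deposited by the authors, and the deposited score is 10 times the −log10 q, rounded down. The deposited summit offset and all positions are base positions. These values described, ranked or filtered regions within a list, and fold enrichments set side by side were not adjusted between libraries. Library depth is not known from the lists. The number of unused columns of per-sample values was 0.

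Regions on chromosomes 1 to 19 were shared when they overlapped by at least 1 bp (Python 3.11.15, numpy 2.4.6, pandas 2.3.3, scipy 1.17.1; the overlap code was tested on simulated intervals). Gene positions, promoter windows and microRNAs came from RefSeq (GRCm38.p6), where 345 of 372 listed symbols, 16457 of 20665 protein-coding genes and, of 39 microRNA genes with a region, 35 mature sequences were matched; starts on chromosome 18 were not used. Named genes were members of the lists, tRNA genes in 1 list alone, the 10 regions with the highest −log10 q per class, the 10 highest and lowest ratios among pairs with a fold enrichment of at least 6 in either list, and the genes with most KCl-only regions. A few genes that meet these rules are not reported here. Predicted gene models were not named, and the microRNA genes and the genes with most untreated-only regions were chosen after their values were seen. The members and lists were chosen with earlier results of these data known. Alternatives were a q of 1e-05 or lower, equal list length, a fold enrichment of at least 6, a deeper overlap and other distances. With 1 list per condition no test between conditions was made.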

Additional observations from a re-analysis of the deposited data

How the results depend on the processing

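The share of KCl regions shared was 56.3% at a q of 1e-05 or lower, 32.8% at equal list length (32.7% when ranked by fold enrichment), 66.5% at a fold enrichment of at least 6 and 45.6% when the overlap had to reach 50% of the shorter region. The untreated shares were 25.1%, 32.5% (32.3%), 64.8% and 15.4%. The log2 width ratio of pairs was −0.19 at the stricter q and −0.16 at the fold enrichment of 6. Summits lay within 100 bp in 83.3% at the stricter q, 65.5% at equal length and 94.6% at a fold enrichment of 6, and within 250 bp in 77.0%. Protein-coding genes in the KCl list alone and in the untreated list alone numbered 391 and 1397 at the stricter q, 1618 and 1390 at equal length, and 108 and 101 at a fold enrichment of 6. Gtf3c1 was at 90.8%, 76.3% and 99.5% of the KCl-only regions under these settings and at 61.9% when the deeper overlap was asked both between the Rpc155 lists and with Gtf3c1. Of all KCl-only regions 44.0% had their summit within 1 kb of an end of any gene, and 67.3% within 5 kb. The share within 1 kb was 41.4% at the stricter q and 31.1% at a fold enrichment of 6. The difference in tRNA genes stayed between −18 and −11. Among gene lists, KCl minus untreated turned to 8 for ribosomal protein genes at equal length, and for synaptic genes to 3 at the stricter q, 10 at equal length and 2 at a fold enrichment of 6. The log2 ratio of strong pairs turned to −0.063 when they were chosen in the untreated list. The alternatives for gene lists, strong pairs and TGACG were added after the data were seen. The cause of these shifts was not tested beyond the list length that the settings themselves change. No paired analysis was possible because each condition has 1 list. Library depth is unknown, and the counts for immediate-early genes rest on regions of low fold enrichment, of which 3 genes in the KCl list and 2 in the untreated list kept one at a fold enrichment of 6.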
